A study of Homo sapiens with 9 samples.

Results

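The 9 genes described here encode transcription factors that establish or maintain hepatocyte identity: HNF4A, FOXA1, FOXA2, FOXA3, CEBPA, CEBPB, ONECUT1, NR5A2 and PROX1. They were chosen by name as regulators of the liver lineage, and their members are the ChIP-seq peaks of 3 SWI/SNF subunits that the authors assigned to one of them as the nearest gene. By that rule 64 of 34575 ARID peaks belonged to the 9 genes, which were among 12428 gene names in the 3 lists. HepG2 is an established human liver cancer line, and it was used untreated and without genetic change. Chromatin was lightly fixed with formaldehyde, digested with micrococcal nuclease and immunoprecipitated with an antibody against ARID1A, ARID1B, ARID2 or SNF5, with 2 replicate libraries per antibody and an input library, 9 in all. The reads of both replicates were merged before peaks were called. Each subunit was therefore represented by 1 list, the values below have no replicate error, and no test between conditions was possible. A single tumour line was studied, and no expression values were used here, so its hepatocyte markers could not be checked from these lists.

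SWI/SNF is a chromatin remodeling complex that uses ATP to move or evict nucleosomes. ARID1A and ARID1B are alternative subunits of its BAF form and ARID2 marks its PBAF form, whereas SNF5 (SMARCB1) is a core subunit found in both. The 9 factors work as a network in liver, where each binds regulatory elements of hepatocyte genes and several bind the genes of one another. FOXA proteins are pioneer factors that can engage DNA in closed chromatin, HNF4A and NR5A2 are nuclear receptors, CEBPA and CEBPB are basic leucine zipper proteins, and ONECUT1 and PROX1 are homeobox factors.

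All 9 genes had at least 1 ARID peak, but the peaks were spread unevenly. CEBPB held 17, FOXA1 13, PROX1 10, FOXA2 9 and HNF4A 7, whereas FOXA3 had 3, ONECUT1 and NR5A2 had 2 each, and CEBPA had 1. The ARID1A list contributed 19 of these peaks, the ARID1B list 18 and the ARID2 list 27. ARID2 peaks were assigned to 9 of the 9 genes, ARID1A peaks to 7 and ARID1B peaks to 6. Across 20136 protein-coding genes the shares with at least 1 peak were 29.7% for ARID2, 33.3% for ARID1A and 17.1% for ARID1B. These genes were not filtered for expression in HepG2. The paper reports little ARID binding at transcripts that were not expressed, and the part of expression in these comparisons was not tested. The 5 members FOXA1, FOXA2, FOXA3, CEBPB and PROX1 had peaks of all 3 ARIDs, against 10.1% of protein-coding genes. The median was 7 peaks per member and 0 per protein-coding gene. Of the protein-coding genes, 11329 had no assigned ARID peak, and the median among those with a peak was 2. The genes without a peak are included in the ranks that follow, and overlapping peaks of different lists count separately. Ranked by number of assigned peaks, CEBPB exceeded 99.7% of protein-coding genes, FOXA1 99.4%, PROX1 98.7%, FOXA2 98.2% and HNF4A 96.7%. FOXA3 exceeded 82.0%, ONECUT1 and NR5A2 71.1% and CEBPA 56.3%. With 1 list per subunit, differences of 1 or 2 peaks between neighbours in this order have no measured error.

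**Figure D1:**
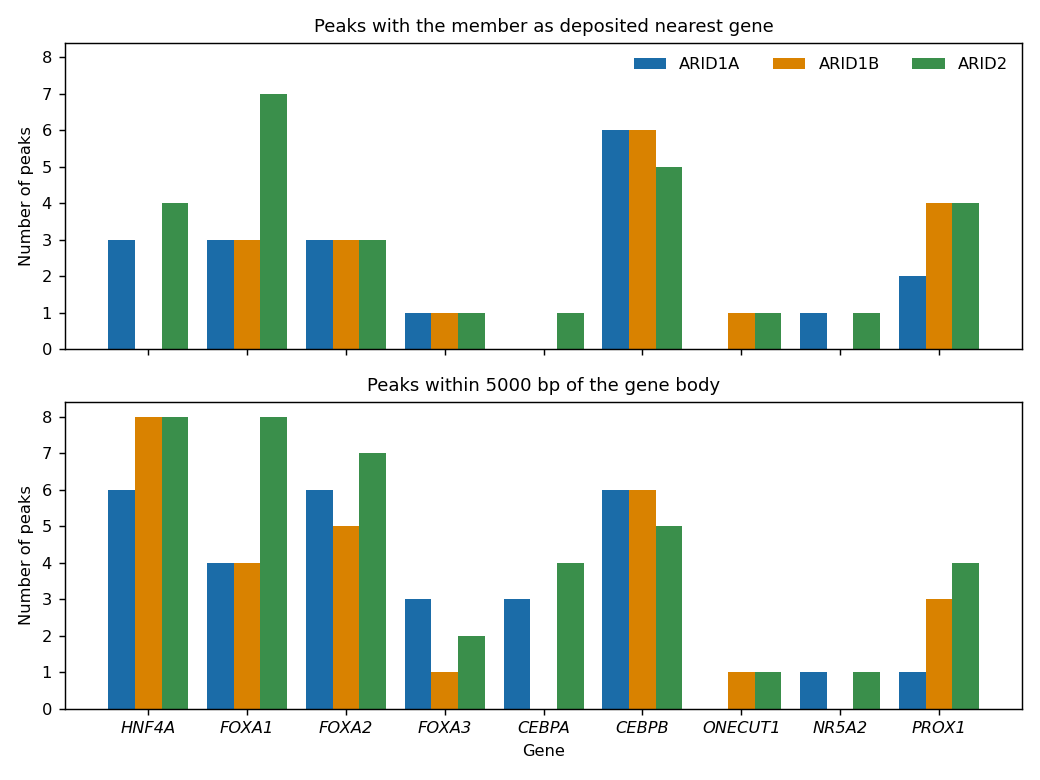
Number of ARID1A, ARID1B and ARID2 peaks at each of the 9 genes, counted by the deposited nearest gene (upper panel) and within 5000 bp of the gene body (lower panel). HNF4A rises from 7 to 22 peaks and CEBPA from 1 to 7 between the panels, whereas CEBPB has 17 in both.

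The nearest-gene column understated the peaks close to some members, because neighbouring non-coding RNAs and genes took them. Counting every ARID peak within 5000 bp of the gene body gave 22 peaks at HNF4A, 18 at FOXA2, 17 at CEBPB, 16 at FOXA1, 8 at PROX1, 7 at CEBPA, 6 at FOXA3, and 2 each at ONECUT1 and NR5A2. In these windows 38 peaks carried the name of another gene, and 19 of the 38 lay inside the member's own gene body. By this count HNF4A exceeded 99.8% of protein-coding genes, FOXA2 99.5%, CEBPB 99.4%, FOXA1 99.3%, CEBPA 92.7% and FOXA3 89.9%. Other ranks fell: PROX1, whose most distant peaks lay outside the window, went from 98.7% to 94.6%. ONECUT1 and NR5A2 went from 71.1% to 59.5%. ARID1A then had a peak at 8 members, ARID1B at 7, ARID2 at 9 and SNF5 at 9, beside 44.1%, 23.8%, 39.9% and 52.6% of protein-coding genes. All 3 ARIDs were present in 6 member windows and in 16.7% of those of protein-coding genes. A longer gene has a longer window, and the member genes ranged from 1839 bp (CEBPB) to 149807 bp (NR5A2).

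CEBPB, which encodes a C/EBP factor induced in the acute-phase response and in regenerating liver, had the most assigned peaks of any member. ARID1A had 6 peaks there, ARID1B 6 and ARID2 5, all within 4249 bp of the transcription start site (TSS) by the deposited distance. Of the 17 peaks, 10 touched one another in a single stretch of 2435 bp, chr20:48805422-48807856 (hg19), which ran from upstream of CEBPB across its start. The ARID1A peak that spans the start was 1419 bp wide, wider than 99.0% of ARID1A peaks. An SNF5 peak of 5491 bp (chr20:48803058-48808548) overlapped 15 of the 17, and it was wider than 99.8% of SNF5 peaks although its score of 22 exceeded only 63.6% of them. The remaining 2 peaks, an ARID2 peak in the exon and an ARID1A peak 3648 bp from the start, had no SNF5 overlap. Peaks of the 3 ARIDs had 419 bases in common just upstream of the gene, and the central 300 of them are shown as the sequence bound in all 3 lists. They lie in an intron of CEBPB-AS1 on the plus strand of GRCh37, with capitals for bases covered by all 3 ARIDs and a GC content of 79.7%.
CEBPB, chr20:48806962-48807261: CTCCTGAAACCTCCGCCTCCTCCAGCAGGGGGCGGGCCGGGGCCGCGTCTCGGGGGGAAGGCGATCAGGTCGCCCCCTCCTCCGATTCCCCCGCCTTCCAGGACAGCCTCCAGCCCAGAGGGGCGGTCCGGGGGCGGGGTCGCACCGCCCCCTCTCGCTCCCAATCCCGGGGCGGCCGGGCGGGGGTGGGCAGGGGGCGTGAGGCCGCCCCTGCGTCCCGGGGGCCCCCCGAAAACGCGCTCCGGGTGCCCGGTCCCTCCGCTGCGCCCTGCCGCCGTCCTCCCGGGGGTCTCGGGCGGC

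Upstream of that stretch, peaks of ARID1B alone held the letters recognised by C/EBP factors themselves (TTGCNNAA). The match was chosen for display after the values were seen. An ARID1B peak of 239 bp was centred at -3107 bp from the gene start, and a second ARID1B peak of 167 bp at -2384 bp. The letters were also in an ARID2 peak of 296 bp that formed part of the merged stretch and overlapped ARID1A and ARID1B peaks. In the second ARID1B peak the C/EBP letters ran into an NR5A2-type match (AAGGTCA). Capitals mark the motif letters in the 3 sequences below, which come from the plus strand of GRCh37 and lie in introns of CEBPB-AS1. In the 239 bp ARID1B peak and in the ARID2 peak the C/EBP match is on the minus strand, so it is printed as TTGAGCAA.
ARID1B peak, chr20:48804141-48804379: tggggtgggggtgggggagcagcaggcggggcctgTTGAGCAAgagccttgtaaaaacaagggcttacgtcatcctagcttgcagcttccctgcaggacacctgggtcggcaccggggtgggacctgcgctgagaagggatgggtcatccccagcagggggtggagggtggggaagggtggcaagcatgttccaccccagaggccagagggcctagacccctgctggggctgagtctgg
ARID1B peak, chr20:48804900-48805066: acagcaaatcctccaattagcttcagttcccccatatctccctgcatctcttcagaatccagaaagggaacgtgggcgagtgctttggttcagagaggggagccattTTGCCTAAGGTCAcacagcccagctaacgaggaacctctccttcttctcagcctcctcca
ARID2 peak, chr20:48805645-48805940: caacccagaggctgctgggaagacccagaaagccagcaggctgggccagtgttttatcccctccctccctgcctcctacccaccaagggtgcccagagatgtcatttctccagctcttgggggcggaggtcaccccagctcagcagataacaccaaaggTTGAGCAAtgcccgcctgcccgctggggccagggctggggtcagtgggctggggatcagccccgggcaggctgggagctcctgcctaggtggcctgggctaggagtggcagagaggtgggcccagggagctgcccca

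CEBPA, the C/EBP member that restrains proliferation in differentiated hepatocytes, had a different picture. Its only assigned peak was an ARID2 peak of 209 bp at 92 bp from the TSS. Another 6 peaks within 5000 bp were assigned to AC008738.1, CEBPA-AS1, CTD-2540B15.11 and CTD-2540B15.9. They comprised 3 ARID1A and 3 ARID2 peaks, and 0 were from the ARID1B list. None of the 7 peaks overlapped a peak of another ARID, although 3 of them lay under a single SNF5 peak of 1102 bp at the start, chr19:33793039-33794140. In that peak an ARID1A peak was centred at 60 bp from the gene start, the ARID2 peak at -125 bp and a second ARID1A peak at -342 bp, so ARID1A and ARID2 peaks alternated without touching. SNF5 had 5 peaks in this window, and 3 of the 5 overlapped no ARID peak.

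FOXA1 and FOXA2, which encode the forkhead factors that open liver enhancers, each carried peaks of all 3 ARIDs at the start of the gene and again in a broad cluster downstream. At FOXA1 the ARID1A list had 3 assigned peaks, the ARID1B list 3 and the ARID2 list 7. The region at the gene start, chr14:38064579-38065740, combined 4 peaks of all 3 ARIDs. Of the 4, 3 were assigned to TTC6, a gene that begins beside FOXA1, so most of the binding at the FOXA1 start was not counted as FOXA1 by name. These were an ARID1A peak of 1023 bp, an ARID1B peak of 791 bp and an ARID2 peak of 456 bp. The SNF5 peak over this start had a score of 42, above 98.9% of SNF5 peaks and the highest within 5000 bp of any member. A second cluster lay beyond the 3′ end, 7168 to 8420 bp from the gene start at the region midpoints. There, 7 ARID peaks formed 2 regions under an SNF5 peak of 3520 bp, chr14:38055338-38058857, which was wider than 99.2% of SNF5 peaks and also held a narrow ARID2 peak of 66 bp. In the gene body, an SNF5 peak of 1970 bp with a score of 32, above 93.4% of SNF5 peaks, met ARID2 peaks of 189 and 526 bp, and the second of these overlapped an ARID1A peak of 211 bp. Nearer the 3′ end was an SNF5 peak of 839 bp with no ARID overlap. The ARID1B peak of the downstream cluster is printed because 248 of its 298 bases, in capitals, were also covered by ARID1A and ARID2. It overlaps an exon of an unnamed Gencode v44 gene (ENSG00000289903), its GC content was 60.7%, and it is written on the plus strand of GRCh37.
FOXA1, chr14:38057630-38057927: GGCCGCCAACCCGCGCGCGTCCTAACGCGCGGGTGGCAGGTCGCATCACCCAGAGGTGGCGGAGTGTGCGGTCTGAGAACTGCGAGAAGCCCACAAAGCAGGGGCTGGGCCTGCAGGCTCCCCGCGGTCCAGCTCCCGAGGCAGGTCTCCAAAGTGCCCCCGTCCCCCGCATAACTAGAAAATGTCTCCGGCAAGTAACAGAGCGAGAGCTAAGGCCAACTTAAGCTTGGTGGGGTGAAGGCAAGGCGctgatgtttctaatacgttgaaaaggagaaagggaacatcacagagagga

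At FOXA2, each of the 3 lists had 3 assigned peaks, 9 in all. An SNF5 peak of 3637 bp, chr20:22562759-22566395, covered all 9, and 8 of the 9 overlapped a peak of another ARID. The widest was an ARID1A peak of 1808 bp, wider than 99.7% of ARID1A peaks, which ran through the gene body and met an ARID2 peak of 981 bp. Another 9 peaks, 3 of ARID1A, 2 of ARID1B and 4 of ARID2, lay beyond the 3′ end and were assigned to LINC00261, a long non-coding RNA gene next to FOXA2. A second broad SNF5 peak, of 4832 bp, covered all 9 of these. Within the gene, the ARID1B peak below lay entirely inside ARID1A and ARID2 peaks, so all of its 187 bases are in capitals. It crosses an exon and an intron of FOXA2, GRCh37 plus strand, and its GC content was 72.7%.
FOXA2, chr20:22563754-22563940: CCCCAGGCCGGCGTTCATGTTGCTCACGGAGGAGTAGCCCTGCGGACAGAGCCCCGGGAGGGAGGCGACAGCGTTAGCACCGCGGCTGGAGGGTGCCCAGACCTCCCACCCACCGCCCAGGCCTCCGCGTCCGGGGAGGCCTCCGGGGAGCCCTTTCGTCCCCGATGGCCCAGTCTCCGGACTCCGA

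**Figure D2:**
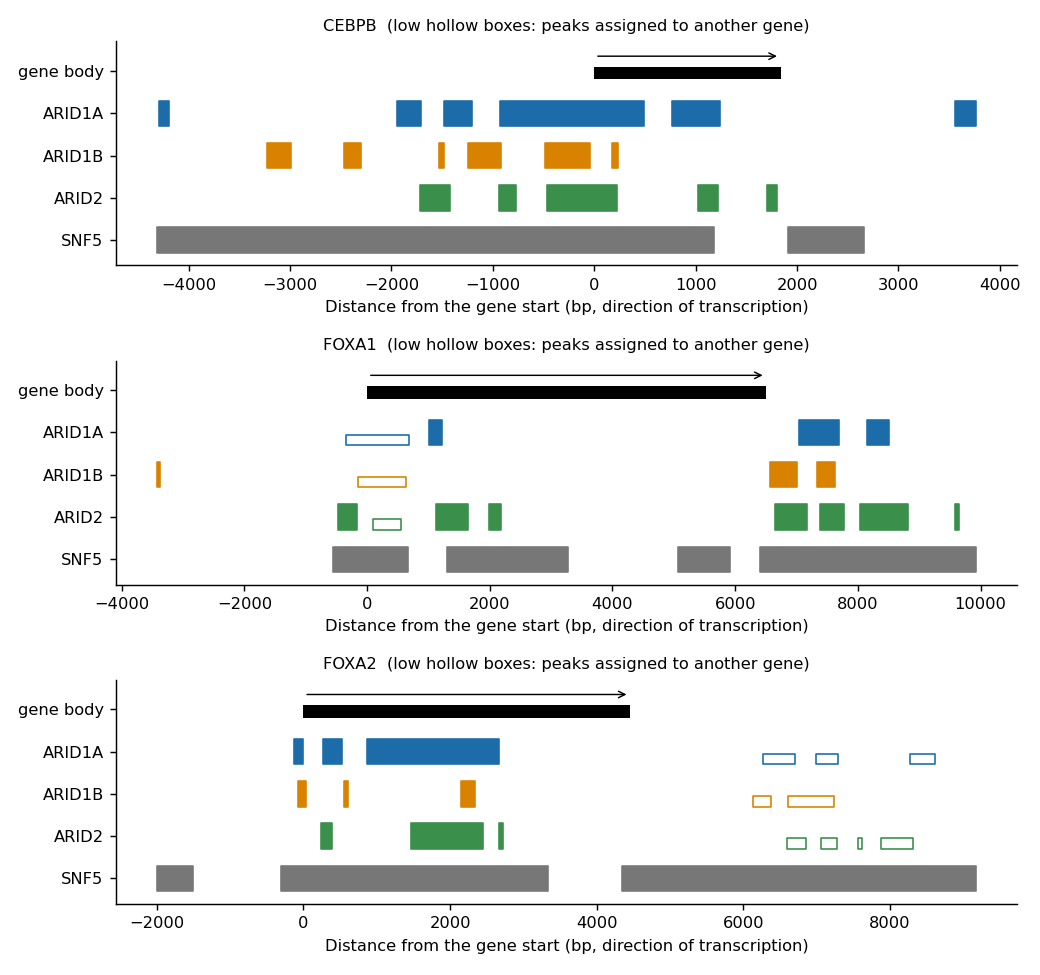
Peaks of ARID1A, ARID1B, ARID2 and SNF5 at CEBPB, FOXA1 and FOXA2, drawn to scale by distance from the gene start in bp. Full-height boxes are peaks assigned to the gene (and all SNF5 peaks), low hollow boxes are ARID peaks assigned to another gene, the black bar is the gene body, and the broad SNF5 peaks are those of 5491 bp at CEBPB, 3520 bp downstream of FOXA1, and 3637 and 4832 bp at and beyond FOXA2.

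FOXA3, the family member that is most abundant in adult liver, had 3 assigned peaks at its start, 1 from each list. They followed one another without overlap at 353 bp (ARID1A), 611 bp (ARID1B) and 864 bp (ARID2) from the gene start. An SNF5 peak of 693 bp met the first 2 of them. Its score of 15 exceeded 8.44% of SNF5 peaks. Because the 3 assigned peaks did not overlap, FOXA3 counted as bound by all 3 ARIDs without a position that they shared. Another 3 peaks within 5000 bp belonged to SYMPK and IRF2BP1 by name, and the ARID1A and ARID2 peaks at SYMPK overlapped each other.

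**Figure D3:**
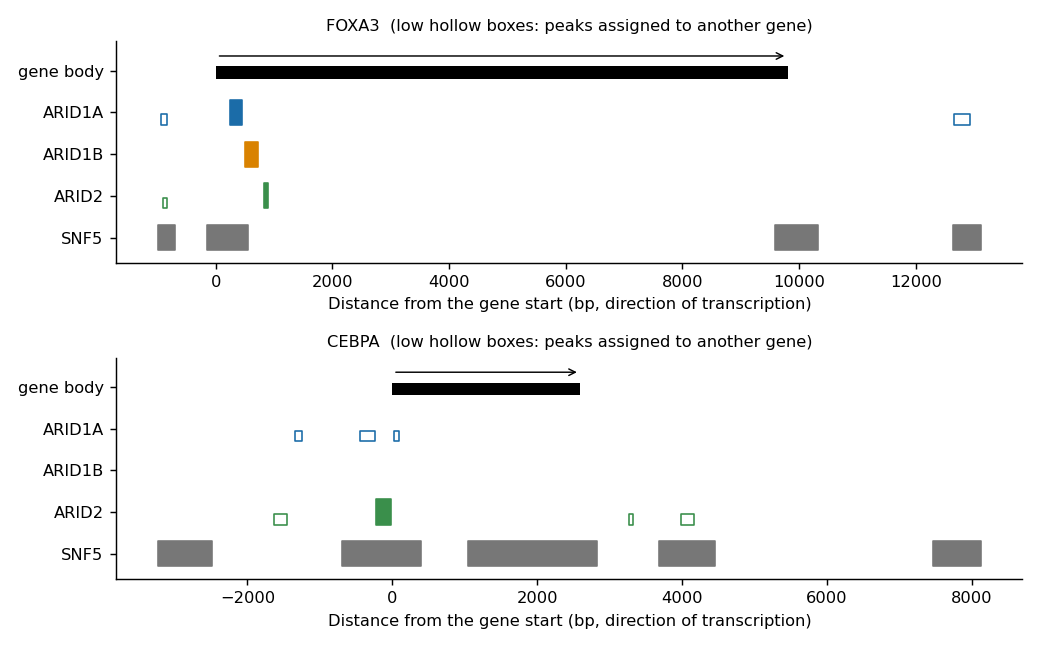
Peaks at FOXA3 and CEBPA by distance from the gene start in bp, with full-height boxes for peaks assigned to the gene and for all SNF5 peaks, and low hollow boxes for ARID peaks assigned to other genes. The assigned peaks at FOXA3 (353, 611 and 864 bp) do not overlap, and the ARID1B row is empty at CEBPA.

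HNF4A, the nuclear receptor at the centre of the hepatocyte network, is transcribed from an upstream promoter used mainly in fetal liver and other organs and a downstream promoter used in adult liver. The lists had 3 ARID1A, 0 ARID1B and 4 ARID2 peaks assigned to it. At the upstream start there was 1 ARID peak, from ARID2, of 649 bp (wider than 94.5% of ARID2 peaks) and at a deposited distance of 29 bp, under an SNF5 peak of 1345 bp. The other 6 assigned peaks lay between 45328 and 48126 bp downstream of the gene start at the region midpoints. They formed 4 regions, 2 of them shared by ARID1A and ARID2. ARID1B was not missing from the locus, since 8 ARID1B peaks lay within 5000 bp of the gene and carried the names RP5-881L22.5, RP5-881L22.4, MIR3646 and AL132772.1. The only region with all 3 ARIDs, chr20:43022988-43023721, was inside HNF4A but assigned to RP5-881L22.4. Its SNF5 peak of 2571 bp had the highest score at this gene, 28, above 86.8% of SNF5 peaks. Of the 15 SNF5 peaks in the window, 7 overlapped no ARID peak. The ARID1A peak near the downstream promoter is shown with capitals for the 101 bases it shared with ARID2, and the ARID2 peak further downstream with capitals for a match to HNF4-type letters (AAAGTCC, here on the minus strand). Both lie in introns of HNF4A and are written on the GRCh37 plus strand, and the second was chosen after the values were seen.
ARID1A peak, chr20:43029528-43029813: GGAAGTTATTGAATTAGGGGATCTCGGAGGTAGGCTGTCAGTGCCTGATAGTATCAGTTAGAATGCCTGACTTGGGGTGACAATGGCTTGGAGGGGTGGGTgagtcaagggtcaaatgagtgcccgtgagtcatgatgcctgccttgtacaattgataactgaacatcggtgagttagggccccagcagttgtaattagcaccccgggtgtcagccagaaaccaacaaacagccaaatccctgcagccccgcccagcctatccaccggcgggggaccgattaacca
ARID2 peak, chr20:43030568-43030689: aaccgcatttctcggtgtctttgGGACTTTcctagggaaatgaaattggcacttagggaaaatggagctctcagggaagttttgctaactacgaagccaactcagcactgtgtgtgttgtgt

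NR5A2 (LRH-1), the nuclear receptor that acts in bile acid and cholesterol metabolism, had 2 peaks. They were an ARID1A peak of 94 bp and an ARID2 peak of 129 bp, 14482 and 15447 bp from the gene start and 491 and 469 bp from the nearest annotated TSS. Both were in the deposited promoter class. They did not overlap each other, and 3 SNF5 peaks within the window overlapped neither of them. ONECUT1 (HNF6), which acts early in liver and bile duct development, also had 2 peaks, an ARID1B peak of 185 bp and an ARID2 peak of 83 bp, both intronic. The single SNF5 peak in its window, of 638 bp near the gene start, overlapped neither. These were the only 2 members with no ARID peak on an SNF5 peak.

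PROX1, a homeobox factor needed for hepatocyte migration out of the liver bud, was the member with the most distant peaks. It had 2 ARID1A, 4 ARID1B and 4 ARID2 assigned peaks, and deposited distances ran from 25 to 54717 bp. These are distances to the nearest annotated TSS, which was not the same one for all PROX1 peaks. The 4 peaks at 54178 to 54717 bp were the most distant of the 9 genes, and they joined in 1 region of 808 bp, chr1:214223932-214224739, beyond the 3′ end of the gene. This region held all 3 ARIDs and was centred 67812 bp from the gene start. It lay under an SNF5 peak of 2367 bp with a score of 29, which was the highest score over any PROX1 peak. The ARID1A peak nearest the TSS, at 1095 bp, was 53 bp wide against 239 bp for the distal one, and the ARID1B peak at the TSS was 52 bp wide against 624 bp. The ARID2 peaks at the TSS, of 249 and 337 bp, did not follow this order, since the wider distal ARID2 peak was 281 bp, and no position there was shared by all 3 ARIDs. Another 2 ARID2 peaks there were assigned to PROX1-AS1. A pair of intronic peaks came from ARID1B alone. They lay 5070 and 31534 bp from their nearest annotated TSS, and 18428 and 44892 bp from the gene start. The distal ARID1A peak is printed with capitals for the 53 bases covered by all 3 ARIDs, on the plus strand of GRCh37, outside any gene of Gencode v44 and with a GC content of 46.0%. A match to the forkhead letters TGTTTAC (chr1:214224123-214224129) begins in the last bases of that run and ends just outside it.
PROX1, chr1:214224074-214224312: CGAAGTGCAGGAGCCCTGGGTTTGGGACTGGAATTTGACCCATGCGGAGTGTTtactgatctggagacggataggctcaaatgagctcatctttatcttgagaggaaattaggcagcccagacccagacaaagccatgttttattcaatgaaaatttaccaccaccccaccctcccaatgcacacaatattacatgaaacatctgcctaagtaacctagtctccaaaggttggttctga

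**Figure D4:**
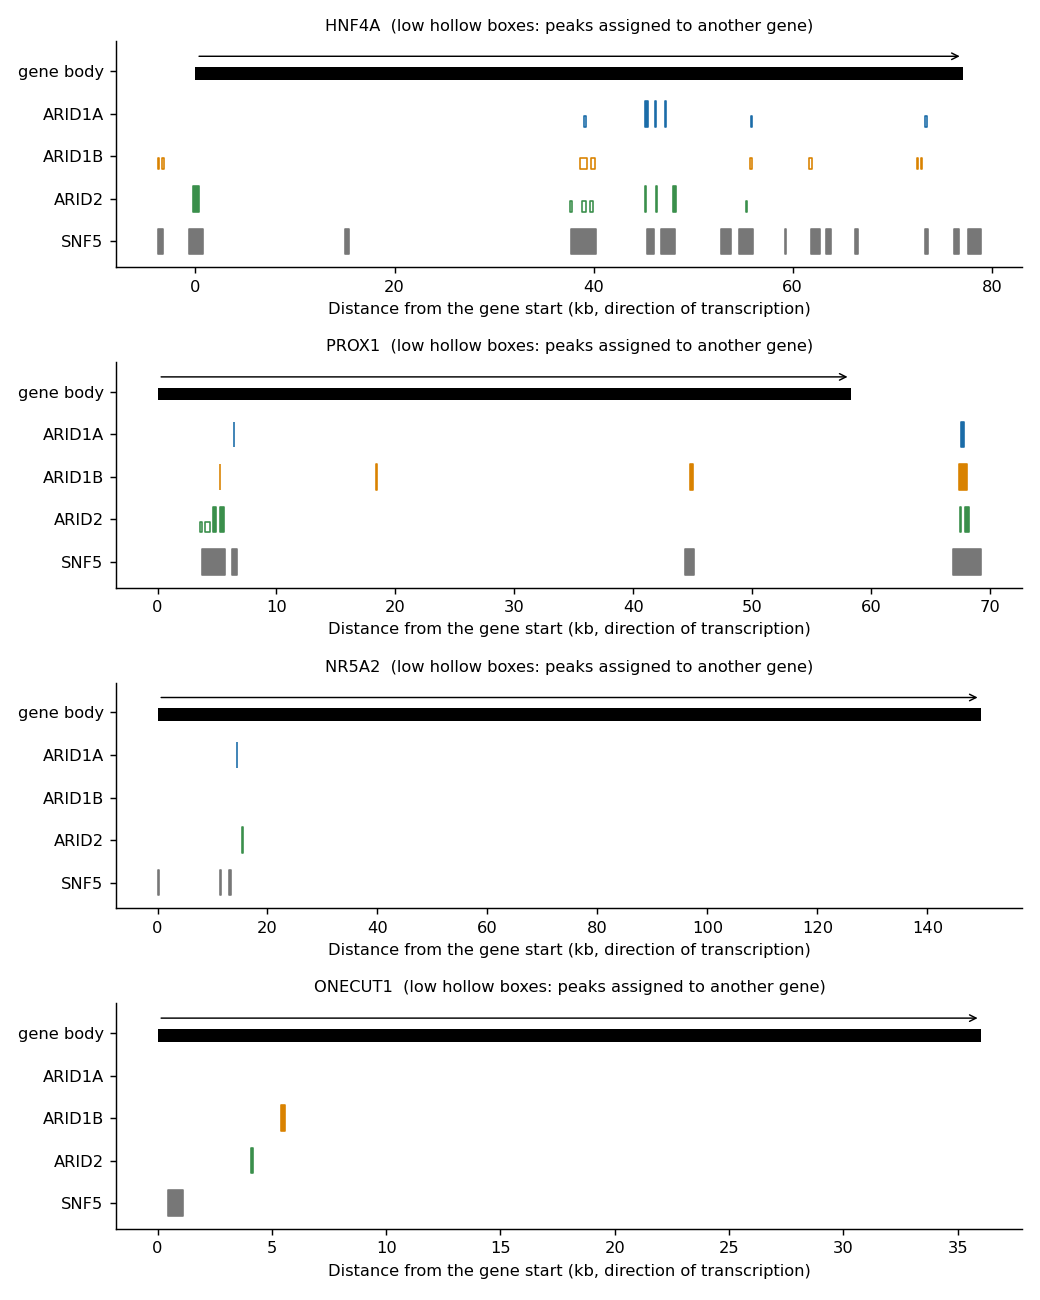
Peaks at HNF4A, PROX1, NR5A2 and ONECUT1 by distance from the gene start in kb, with full-height boxes for peaks assigned to the gene and for all SNF5 peaks, and low hollow boxes for ARID peaks assigned to other genes (outlines make the narrowest peaks look slightly wider). ARID1B at HNF4A appears only as hollow boxes, and the 4 most distant PROX1 peaks share an SNF5 peak.

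Taking the 64 peaks as a group, 32 were in the deposited promoter class, 40 overlapped a peak of another ARID and 51 overlapped SNF5. Within each list, the share of member peaks was set beside that of the whole list, with Wilson 95% intervals that cover counting error over peaks only. In the promoter class were 52.6% of the ARID1A member peaks (31.7 to 72.7%, n = 19), 38.9% of those of ARID1B (20.3 to 61.4%, n = 18) and 55.6% of those of ARID2 (37.3 to 72.4%, n = 27). The whole lists had 72.6%, 37.9% and 67.0%. Overlap with another ARID was found for 68.4% (46.0 to 84.6%), 55.6% (33.7 to 75.4%) and 63.0% (44.2 to 78.5%) of member peaks, against 47.6%, 40.1% and 46.9% of the whole lists. SNF5 overlapped 78.9% (56.7 to 91.5%), 83.3% (60.8 to 94.2%) and 77.8% (59.2 to 89.4%), against 71.3%, 62.9% and 67.2%. Each of these 9 whole-list shares fell inside the interval of its member share. Pooled over the 3 lists, 62.5% of member peaks overlapped another ARID (50.3 to 73.3%) against 45.5% of all ARID peaks. SNF5 overlapped 79.7% (68.3 to 87.7%) against 67.6%, and both of these list shares lay outside the interval. Promoter peaks were 50% (38.1 to 61.9%) against 61.7%. The pooled intervals treat the 64 peaks as independent, which they are not, so a list share outside them is a description only. CEBPB gave 15 of the 51 peaks on SNF5, all on 1 SNF5 peak, and the pooled shares were not recomputed without it.

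In the other classes, some whole-list shares lay outside the interval of the member share, but most lay inside it. Distal peaks made up 36.8% of ARID1A member peaks (19.1 to 59.0%) against 12.6% of the list, 38.9% (20.3 to 61.4%) against 25.8% for ARID1B, and 25.9% (13.2 to 44.7%) against 13.6% for ARID2, so that only the ARID1A list share lay outside the interval. The distal member peaks were at CEBPB (9), FOXA1 (8) and PROX1 (4). Those at CEBPB lay only 1091 to 4249 bp from the TSS, whereas a CEBPB peak at 992 bp was in the promoter class. The distal class was therefore not confined to remote elements. Overlap with both other ARIDs was found for 26.3% of ARID1A member peaks (11.8 to 48.8%) against 13.7%, 38.9% of those of ARID1B (20.3 to 61.4%) against 19.2% and 25.9% of those of ARID2 (13.2 to 44.7%) against 13.0%, and the list shares of ARID1B and ARID2 were outside the interval. Exon peaks were 3 of the 27 ARID2 member peaks, 11.1% (3.85 to 28.1%) against 1.89%, and 0 of the ARID1A and ARID1B member peaks, against 1.88% and 2.36%. Intron peaks were 10.5% (2.94 to 31.4%) against 12.9%, 22.2% (9.0 to 45.2%) against 33.9%, and 7.41% (2.06 to 23.4%) against 17.5%, each within its interval. Neighbouring peaks at the same gene are not independent, and an overlap between 2 lists is counted once in each of them. CEBPB alone gave 12 of the 40 overlapping peaks, FOXA1 10, FOXA2 8, PROX1 6 and HNF4A 4. Without CEBPB the shares overlapping another ARID were 69.2%, 50% and 59.1%. SNF5 then overlapped 10 of 13 ARID1A, 9 of 12 ARID1B and 17 of 22 ARID2 member peaks. The distal, exon and both-other-ARID shares, where some list shares lay outside the interval, were not recomputed without CEBPB. CEBPB held 9 of the distal member peaks and 2 of the 3 exon peaks. How far those differences from the lists rest on this gene was therefore not tested.

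**Figure D5:**
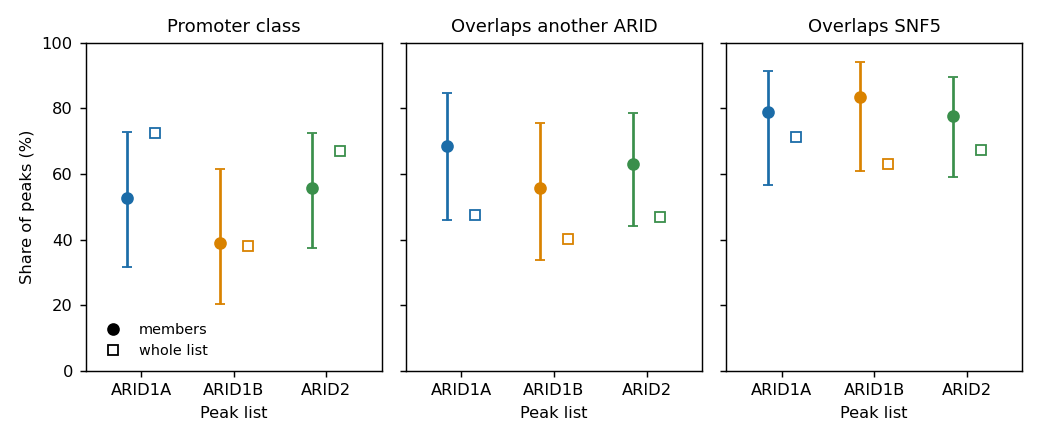
Share of peaks (%) in the promoter class, overlapping another ARID and overlapping SNF5, for the member peaks (circles) and the whole list (squares), with Wilson 95% intervals that are narrower than the symbols for the whole lists. Every square lies inside the interval of the circle beside it.

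Merging overlapping ARID peaks left 37 regions assigned to the 9 genes. CEBPB and FOXA1 had 7 each, PROX1 6, HNF4A 5 and FOXA2 4, so CEBPB did not lead by this count. FOXA3 had 3, ONECUT1 and NR5A2 2 each and CEBPA 1. A single ARID occupied 24 of the 37 regions, 2 ARIDs occupied 8 and all 3 occupied 5. The last is 13.5% of the member regions against 7.55% of the 25247 regions genome-wide. The 5 were at CEBPB, FOXA2 and PROX1, with 1 each, and FOXA1, with 2. SNF5 overlapped 27 of the 37 (73.0%), against 60.0% of all regions. A further 24 regions within 5000 bp belonged to other genes by name, of which 2 held all 3 ARIDs.

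SNF5 peaks that met member peaks included several broad ones. Of 14 such SNF5 peaks, 3 were at least 3000 bp wide, at CEBPB, FOXA1 and FOXA2, whereas this width was reached by 2.81% of SNF5 peaks that overlapped any ARID peak and by 1.45% of all 20718. The median width of the 14 was 1386 bp and their median score 21.5, against 836.5 bp and 22 for SNF5 peaks on any ARID peak. Wide peaks have more chance to meet an ARID peak, so widths of overlapped peaks are not comparable with those of the full SNF5 list, whose median was 535 bp. The widest of the 14 (CEBPB) had a score of 22, and the highest score (42) belonged to the 1217 bp peak at the FOXA1 start. Member ARID peaks had median widths of 237 bp for ARID1A, 186 bp for ARID1B and 209 bp for ARID2, beside 218, 164 and 189 bp in the whole lists.

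Binding letters of the liver factors were sought in 200 bp windows centred on peaks, on both strands, as a description of the DNA under the peaks. C/EBP letters (TTGCNNAA) were in 7 of 64 member windows (10.9%) and 7.68% of all 34575 ARID windows, and 4 of the 7 were at CEBPB. Forkhead letters (TGTTTAC) were in 4 (6.25% against 3.05%), 3 of them at PROX1 and 1 at FOXA1. HNF4-type letters (AAAGTCC) were in 3 (4.69% against 3.53%), a pair of overlapping windows at HNF4A and 1 at PROX1. NR5A2-type letters (AAGGTCA) were in 4 (6.25% against 4.02%), AP-1 letters (TGANTCA) in 5 (7.81% against 4.99%) and ONECUT letters (ATTGATT) in 1, at FOXA2 (1.56% against 1.58%). Several windows overlap, so these counts include the same site more than once, and a difference of a few windows out of 64 carries no weight. The shared bases printed for CEBPB, FOXA1 and FOXA2 held none of these motifs.

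Other genes of the liver network gave a context for these counts. Of 24 further liver transcription factor genes, 15 had an ARID1A peak, 10 an ARID1B peak and 14 an ARID2 peak, with a median of 3 peaks per gene. Several had peaks of all 3 ARIDs. Among them HHEX, a homeobox factor of the early liver bud, had 7 ARID1A, 5 ARID1B and 5 ARID2 peaks, the same total as CEBPB. GATA4 had 5, 2 and 4, and MLXIPL, which encodes the glucose-responsive factor ChREBP, 3, 4 and 3. RXRA, the shared partner of many nuclear receptors, had 2, 3 and 3, XBP1, a factor of the unfolded protein response, 2, 3 and 2, and NR0B2 (SHP), a repressor of bile acid synthesis, 1, 3 and 2. Genes with no assigned ARID peak included HNF4G, GATA6, NR1I2, NR1I3, NR2F2 and ATF5. By distance, NR2F2 nevertheless had 1 ARID1A, 1 ARID1B and 3 ARID2 peaks within 5000 bp, whereas GATA6 had 0 peaks of any of the 4 subunits.

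Genes with a similar distribution of peaks were looked for among all gene names, using the Euclidean distance between 6 counts (promoter and other peaks in each ARID list). The 3 nearest to CEBPB were TBC1D8 (distance 1.41), NPAS2 (1.73) and PIM3 (1.73). For FOXA1 they were HSPA1L, PARD6B and RP5-1125A11.1, each at 1.41, and for PROX1 they were RP1-86D1.4 (1.0), KCTD2 (1.41) and RNU1-3 (1.41). No other name had exactly the counts of CEBPB, FOXA1, FOXA2 or PROX1. By contrast 369 other names had the counts of FOXA3, 1372 those of NR5A2, 1119 those of CEBPA, 117 those of ONECUT1 and 2 those of HNF4A.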

How the data were processed

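ChIP-seq of ARID1A, ARID1B, ARID2 and SNF5 in HepG2 was grouped by the antibody in each library's title. Per the study's methods, single-end reads were mapped by the authors to hg19 (bowtie2), duplicates were dropped, the 2 replicates were pooled (samtools) and broad peaks were called with MACS2. Close peaks were then joined, and blacklisted ones were removed. The use of the input as control is not given in the sources used here. The other deposited values are peak positions, classes, distances and nearest genes from Gencode, and the score the authors deposited was present for SNF5 only. Read counts were not used here, so the depth is unknown and intervals cover counting error only.

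Peaks were taken by the deposited nearest gene, or within 5000 bp of gene bodies from Gencode v44 lifted to GRCh37. Of the deposited names, 8814 matched protein-coding genes, 594 of them through synonyms. Overlap meant at least 1 bp. Coordinates are 1-based, whereas file starts are 0-based. Sequences came from GRCh37, outside annotated UTRs, with at most 300 bases each. Scripts (Python 3.11.15, pandas 2.3.3, scipy 1.17.1) were tested on simulated data. Members, gene lists and motifs were chosen with earlier results of these data known. Named genes were the 9 members, their neighbours within 5000 bp, liver factors with peaks in all 3 lists or in none, and the 3 genes nearest in counts to the 3 members with most peaks. Some listed items are not reported here.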

Additional observations from a re-analysis of the deposited data

How the results depend on the processing

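Across 13 results and 63 alternatives, 35 values moved by less than 1.5 times (counts) or stayed inside the 95% interval (shares) and 28 did not. Values are given in the order ARID1A, ARID1B, ARID2. Member peaks numbered 30, 28 and 40 within 5000 bp of the gene body, 11, 11 and 15 after joining peaks at most 1000 bp apart, and 10, 11 and 16 in the wider 50% of each list. A distance of at most 5000 bp in place of the promoter class gave 84.2%, 77.8% and 77.8%, and joining gave 73.3% for ARID2. Overlap with another ARID was 10.5%, 22.2% and 14.8% when 50% of each peak had to overlap, and 94.7%, 77.8% and 88.9% when gaps up to 1000 bp were allowed. Overlap with SNF5 was 0.0% in each list under the same 50% requirement, which the greater width of SNF5 peaks makes hard to reach. It was 94.7% (ARID1A) and 92.6% (ARID2) with gaps up to 1000 bp, 47.4%, 27.8% and 37.0% for midpoints at most 500 bp apart, and 100% for ARID1A and ARID2 in the wider 50%. The cause of the other shifts was not tested. The alternative without CEBPB was chosen after seeing the data. No paired analysis was possible because each list pools both replicates, and leaving out a replicate could not be run for the same reason.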

Other observations

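The deposited chromatin state was not used for the members, because it differed between lists at the same place. Overlapping ARID1A and ARID2 peaks carried the same state in 51.4% of 5618 pairs, ARID1A and ARID1B peaks in 42.9% of 2880 and ARID1B and ARID2 peaks in 38.3% of 2458. Of the 1623 ARID1A peaks in the distal class, 49.7% carried the active promoter state.

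Within 5000 bp of the 9 genes lay 40 SNF5 peaks, of which 18 overlapped no ARID peak. HNF4A had 7 of these 18, CEBPA and NR5A2 3 each, and FOXA1, FOXA2, FOXA3, CEBPB and ONECUT1 1 each, whereas all 3 SNF5 peaks near PROX1 met an ARID peak.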
